A study of Mus musculus with 36 samples.

Results

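Claudins are the membrane proteins that seal the gap between neighbouring epithelial cells at the tight junction and decide which ions pass through it. The kidney tubule is built as a series of segments, and each segment makes its own set. Cldn2 forms a pore for sodium and water in the proximal tubule, Cldn16 and Cldn19 form the route for calcium and magnesium in the thick ascending limb, and Cldn3, Cldn4, Cldn7 and Cldn8 line the collecting duct and the segments just before it. Cldn10 is known from the proximal tubule and the thick ascending limb, Cldn1 from the parietal cells around the glomerulus, and Cldn6 from the immature kidney of the newborn. These 10 genes were chosen by name as the segment claudins of the kidney, out of 20454 genes with a symbol. The choice was made with earlier results of these data known. Each gene was read from its RefSeq transcript with the highest mean count.

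Whole kidneys of C57BL/6 background mice were compared on postnatal days 1, 3 and 7 (P1, P3, P7) in a pair of models of polycystic kidney disease. In the Pkd1 model the knockout (KO) was Pkd1 f/f:HoxB7-cre, and in the Pkd2 model it was Pkd2 f/f:HoxB7-cre. The controls (WT) were age-matched littermates of genotype Pkd1 f/f or Pkd2 f/f, so both arms carried the floxed alleles and only the KO arm carried the cre. HoxB7-cre is active in the collecting duct and its ureteric bud ancestors, so the deletion was made in one tubule lineage and the other segments of a KO kidney kept the gene. Each of the 12 groups had 3 libraries, 36 in all, with 7179152 to 15850818 counts per library and a median of 13143336. In whole kidney, fewer cells of a type and less RNA per cell cannot be told apart. Nothing in the labels ties a replicate number to a litter, so p-values measure the spread between these libraries.

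The labels were checked against other genes. Six2, a marker of nephron progenitors that are lost in the first days after birth, fell by 7.50 and by 9.25 on the log2 scale from P1 to P7 in the WT of the Pkd1 and the Pkd2 model. The targeted transcripts changed little in whole kidney: Pkd1 differed between KO and WT at P7 by 0.10 ± 0.12 (log2, SE; adjusted p = 0.595), and Pkd2 was lower by -0.29 ± 0.05 (adjusted p = 0.0122). Y-linked transcripts were present in 3 of 3 Pkd1 KO libraries at P7 and in 0 of 3 of their WT. Genotype and Y-linked transcripts therefore cannot be told apart in this comparison. Tests of the KO effect between days or between models that use these Pkd1 P7 groups share this limit. The WT course of the Pkd1 model was unbalanced too. In Pkd1 WT Y-linked transcripts were present in 2 of 3 libraries at P1, 3 of 3 at P3 and 0 of 3 at P7. In the Pkd2 model at P7 they were present in 3 of 3 KO and 2 of 3 WT libraries, with WT replicate 3 the exception.

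Cldn10 could not be read. All 6 of its transcripts were listed at 0 in 36 of 36 libraries. The table holds 1 row per transcript, and 22.4% of genes with 2 or more rows were at 0 throughout, against 15.3% of genes with 1 row. Cldn12, Cldn14 and Cldn18, which also have several rows, had at most 6 counts in any library in any row, while Cldn7 and Cldn19 have 2 rows each and nearly all counts fell on 1 of them. Umod, the most abundant gene of the thick ascending limb, averaged under 1 count. A listed 0 is therefore not used here as a measure of absence. The other 9 claudins each had at least 144 counts in every library, and all 9 passed the filter of 10 counts in 3 of the 18 libraries of a model.

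The 9 measured claudins differed widely in level. Levels between genes are given as CPM (counts scaled to library size) per kilobase of transcript, written CPM per kb, in WT kidneys. Cldn7 and Cldn19 have 2 rows each and the others 1. Whether counts are complete for genes with several rows was not tested, so the levels of Cldn7 and Cldn19 may be understated. At P1 in the Pkd1 model the order began with Cldn8 (85.9 ± 6.30, SD, n = 3), Cldn6 (85.3 ± 22.2), Cldn2 (66.8 ± 9.27) and Cldn4 (65.6 ± 7.09), each overlapping the next. A gap followed, and Cldn3 (36.1 ± 2.20), Cldn1, Cldn19, Cldn7 and Cldn16 (14.0 ± 3.16) made up the lower group, again each overlapping the next. Pkd2 WT kidneys at P1 had the same upper 4 in the same order, from 95.1 ± 7.46 for Cldn8 to 65.3 ± 8.56 for Cldn4.

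By P7 Cldn2 had moved to the head of the list. In Pkd1 WT kidneys its level was 133.6 ± 5.53 CPM per kb, above Cldn8 at 101.0 ± 18.7 without overlap, and in Pkd2 WT kidneys it was 175.7 ± 30.1 against 134.6 ± 24.6 for Cldn8, with overlap. Cldn19 stood next below Cldn4 in both models at P7, at 42.4 ± 3.78 and 40.0 ± 7.83 CPM per kb. Cldn7, a claudin of the distal tubule and collecting duct, was the lowest in both, at 14.9 ± 2.17 and 17.1 ± 3.05. Cldn19 and Cldn7 have 2 rows each, so the limit given above applies to their ranks.

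**Figure D1:**
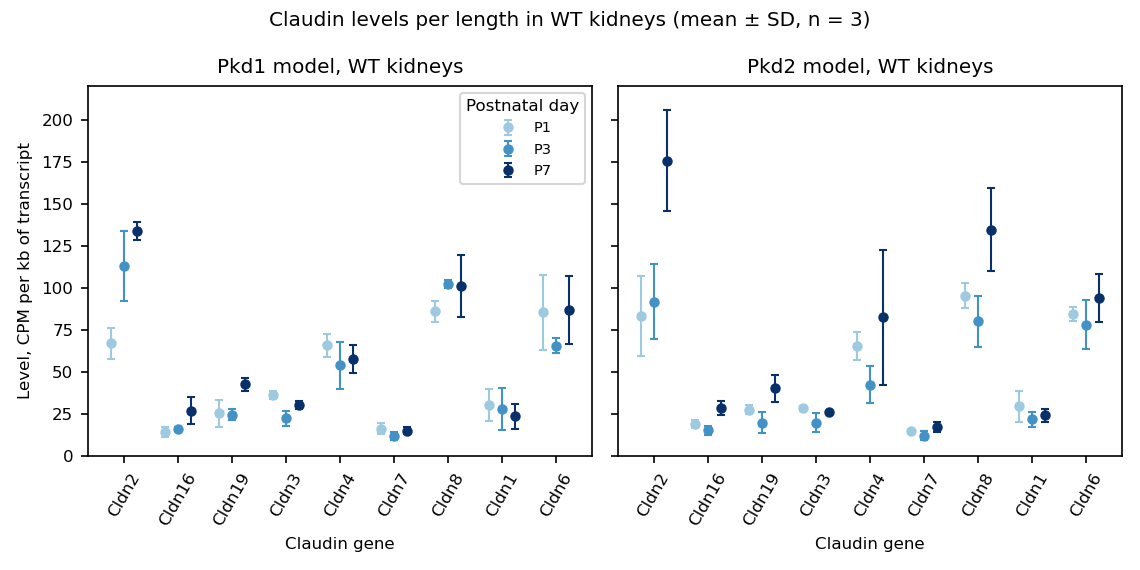
Level of each claudin per length (vertical axis, CPM per kb of transcript; points, mean of 3 WT libraries; bars, SD) at P1, P3 and P7 in the Pkd1 and Pkd2 models. Cldn2 rises from 66.8 to 133.6 in Pkd1 WT and from 82.9 to 175.7 in Pkd2 WT between P1 and P7, while Cldn7 stays at 17.1 or below.

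The first comparison asked which claudins change as the normal kidney matures from P1 to P7. In Pkd1 WT kidneys Y-linked transcripts were present in 2 of 3 P1 and 0 of 3 P7 libraries, and their part was not tested. Normalized counts, which are counts scaled to the mean effective library of the model, are used from here on. Cldn2 stood at 2622 ± 363 (SD, n = 3) at P1, 4430 ± 815 at P3 and 5197 ± 175 at P7 in Pkd1 WT kidneys, and the P7 and P1 libraries did not overlap. The log2 difference was 0.99 ± 0.14 (SE; edgeR quasi-likelihood test, adjusted p = 0.00188 over all transcripts tested). In Pkd2 WT kidneys Cldn2 went from 3413 ± 976 to 7204 ± 1241, a log2 difference of 1.08 ± 0.24 (adjusted p = 0.0143).

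Cldn16 and Cldn19 of the thick ascending limb rose with age in Pkd1 WT kidneys, and Cldn16 did so in Pkd2 WT kidneys too. Cldn16 went from 212 ± 47.2 to 401 ± 119 in Pkd1 WT kidneys (log2 difference 0.93 ± 0.23, adjusted p = 0.0199) and from 296 ± 38.8 to 449 ± 69.0 in Pkd2 WT kidneys (0.60 ± 0.16, adjusted p = 0.0336). Cldn19 rose in Pkd1 WT kidneys, from 1359 ± 428 to 2260 ± 199.5 (0.74 ± 0.20, adjusted p = 0.0311). In Pkd2 WT kidneys its means were 1543.5 ± 149 and 2243 ± 438, a difference of 0.54 ± 0.22 that missed the threshold (adjusted p = 0.116). Without P1 WT replicate 1 of the Pkd1 model Cldn16 and Cldn19 missed it too, at adjusted p = 0.0579 and 0.0667. Cldn16 also missed it without P1 WT replicate 3 (0.0618), and Cldn19 without P7 WT replicate 1, 2 or 3 (0.0563 to 0.0599). In the Pkd2 model Cldn2 and Cldn16 were both lost without P1 WT replicate 2 or 3 or P7 WT replicate 1 or 2 (adjusted p up to 0.0649 for Cldn2 and 0.122 for Cldn16). Leaving out P3 WT replicate 2 changes the filter, the library scaling and the shared estimate of spread, though not the libraries compared. Without it Cldn19 was called in the Pkd2 model (0.0341), as was Cldn8 (0.0153), and Cldn19 was also called without P3 WT replicate 1 (0.0486).

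The claudins of the collecting duct did not change detectably over the same days. Cldn3, Cldn4, Cldn7 and Cldn8 had log2 differences between -0.27 and 0.49 over both models, with adjusted p from 0.0572 for Cldn8 in Pkd2 WT kidneys (0.0194 by DESeq2) to 0.761 for Cldn7 in Pkd1 WT kidneys. Cldn6 differed by 0.01 ± 0.20 and 0.15 ± 0.14, and at P7 it was still among the 4 highest claudins in both models. In all, 3 of 9 claudins were called higher at P7 in Pkd1 WT kidneys, where 8.86% of all transcripts were, and 2 of 9 in Pkd2 WT kidneys, where 9.02% were. None of the 9 was called lower, where 9.07% and 10.2% of all transcripts were.

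The second comparison asked what loss of Pkd1 or Pkd2 in the collecting duct does to the claudins at each day. At P1 none of the 9 was called in either model, and of all transcripts 0% were called for Pkd1 and 0% for Pkd2, with 161 and 708 transcripts at an unadjusted p under 0.05. The largest log2 fold changes among the 9 were -0.18 for Cldn4 in Pkd1 and -0.22 for Cldn6 in Pkd2. Groups did not overlap for 0 of 9 claudins in the Pkd1 model, against 5.73% of all transcripts, and for 1 of 9 (Cldn6, lower in KO) in the Pkd2 model, against 11.3%.

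**Figure D2:**
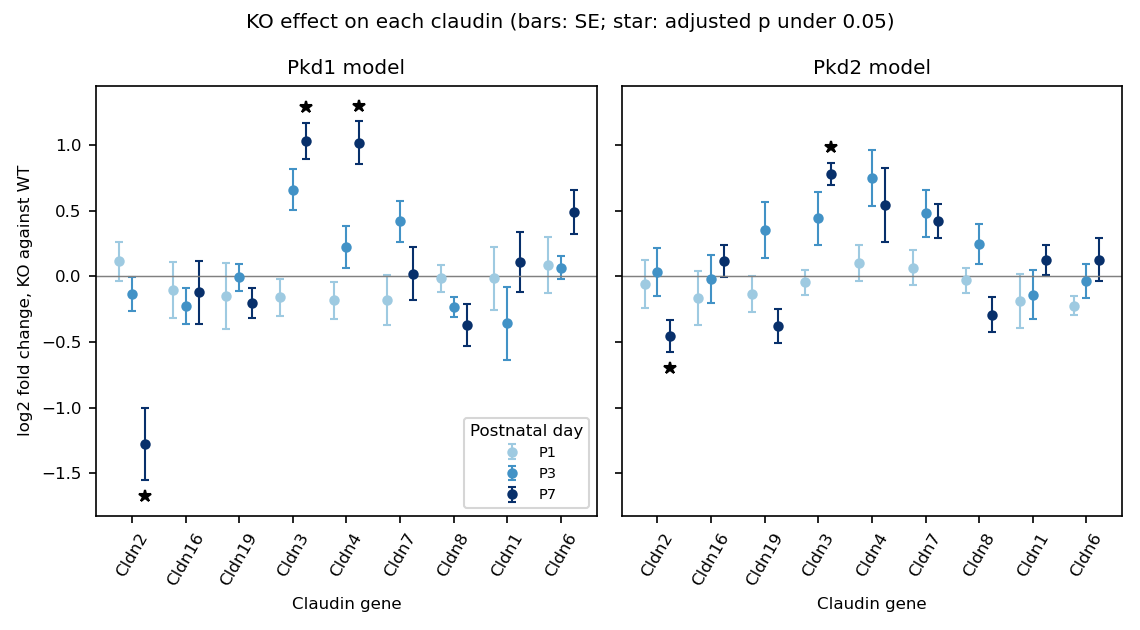
KO against WT log2 fold change of each measured claudin (vertical axis; bars, SE from edgeR; 3 KO and 3 WT libraries) at P1, P3 and P7, with a star where the adjusted p over all transcripts is under 0.05. All P1 points lie between -0.22 and 0.11, and at P7 Cldn3 stands at 1.03 in Pkd1 and 0.78 in Pkd2 while Cldn2 stands at -1.28 and -0.45.

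At P7 Cldn3 rose in both models, Cldn4 rose in the Pkd1 model and Cldn2 fell in both. In the Pkd1 model 3 of 9 claudins were called, against 13.7% of all transcripts. They were 2 of 9 called higher, where 6.2% of all transcripts were, and 1 of 9 called lower, where 7.54% were. In the Pkd2 model 2 of 9 were called, against 13.9% of all transcripts, 1 higher (7.82%) and 1 lower (6.06%). Groups did not overlap for 4 of 9 claudins in each model, against 38.7% and 35.1% of all transcripts, so the share of claudins without overlap was close to the background.

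The start regions of the 3 called claudins are shown because they are the genes the P7 comparison turns on, and because Cldn3 and Cldn4 are neighbours on chromosome 5. Each window holds 250 bases before and 50 after the RefSeq start of GRCm38.p6, 5′ to 3′ on the strand of the gene. It was searched on both strands for the grainyhead-like motif AACNGGTT, bound by epithelial factors such as Grhl2, and for the AP-1 motif TGANTCA, and capitals mark matches. Cldn4 lies at chr5:134946885-134947184 on the minus strand, Cldn3 at chr5:134985964-134986263 and Cldn2 at chrX:139800558-139800857, both on the plus strand.
Cldn4: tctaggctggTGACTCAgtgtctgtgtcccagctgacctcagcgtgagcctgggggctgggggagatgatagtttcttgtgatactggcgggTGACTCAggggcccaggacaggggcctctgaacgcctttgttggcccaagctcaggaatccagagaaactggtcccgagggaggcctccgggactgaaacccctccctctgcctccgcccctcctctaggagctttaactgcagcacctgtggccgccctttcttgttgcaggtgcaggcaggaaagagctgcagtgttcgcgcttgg
Cldn3: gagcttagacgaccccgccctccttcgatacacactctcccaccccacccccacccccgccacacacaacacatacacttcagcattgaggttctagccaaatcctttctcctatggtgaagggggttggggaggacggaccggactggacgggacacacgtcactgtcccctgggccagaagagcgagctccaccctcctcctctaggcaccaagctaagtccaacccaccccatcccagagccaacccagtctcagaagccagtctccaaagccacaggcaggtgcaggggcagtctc
Cldn2: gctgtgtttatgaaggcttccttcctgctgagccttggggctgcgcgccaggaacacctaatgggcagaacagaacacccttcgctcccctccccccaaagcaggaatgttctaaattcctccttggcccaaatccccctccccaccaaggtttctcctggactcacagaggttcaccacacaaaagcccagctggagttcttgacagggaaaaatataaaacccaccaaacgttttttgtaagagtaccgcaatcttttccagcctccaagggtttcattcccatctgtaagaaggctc

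The Cldn4 window held 2 AP-1 matches, at -240 and -158 from the start. No grainyhead-like match was in it, and neither motif was found in the other 11 windows available for 9 of the 10 claudin genes. Among 32851 windows of this length, 7.81% held TGANTCA and 2.09% held AACNGGTT. Cldn4 (chr5:134945123-134946934) and Cldn3 (chr5:134986214-134987476) are 39.3 kb apart and are read in opposite directions. Their GC content was 61% and 60.7%, against 51.3% for Cldn2 and a median of 52.7% over all windows.

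Cldn3, a barrier claudin of the collecting duct and distal tubule, was called in both models. Its normalized counts at P7 were 886, 1151 and 944 in Pkd1 KO kidneys and 527, 450.0 and 478 in their WT. Every KO library lay above every WT library. The log2 fold change was 1.03 ± 0.14 (SE, adjusted p = 0.00741), and it stayed past the threshold when any 1 of the 6 libraries was left out (adjusted p 0.00591 to 0.0356). The values in the Pkd2 model were 821, 714 and 708 in KO and 439, 439 and 427 in WT, again with no overlap, for a log2 fold change of 0.78 ± 0.09 (adjusted p = 0.00163; 0.00163 to 0.0138 with 1 library left out).

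Cldn3 in the KO was already apart from the WT at P3 in the Pkd1 model, though short of the threshold. The KO libraries had 518, 537 and 652 normalized counts and the WT libraries 437, 357 and 288. The log2 fold change was 0.66 ± 0.16, with an adjusted p of 0.180 by edgeR's quasi-likelihood test, 0.0195 by its exact test and 0.00919 by DESeq2. For Pkd2 at P3 the KO values of 485, 426 and 462 overlapped the WT values of 437, 248 and 323 (0.44 ± 0.20, adjusted p = 0.931). None of the 9 claudins was called at P3 by the quasi-likelihood test in either model, where 0.00798% and 0% of all transcripts were called, 1 transcript and 0, with 1767 and 563 at an unadjusted p under 0.05.

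Cldn4, which blocks sodium and lets chloride pass in the collecting duct, rose in the Pkd1 model at P7. The KO libraries held 3137, 2742 and 2198 normalized counts and the WT libraries 1261, 1559 and 1168. The groups did not overlap, and the log2 fold change was 1.02 ± 0.16 (adjusted p = 0.0114). Without WT replicate 1 the adjusted p was 0.0583.

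The same gene in the Pkd2 model rested on 1 library. The KO libraries had 2777, 3141 and 2875 normalized counts, and 2 WT libraries had 1595 and 1314, but WT replicate 3 had 3134. With all 6 libraries the log2 fold change was 0.54 ± 0.28 (adjusted p = 0.243), and without WT replicate 3 it was 1.01 (adjusted p = 0.000434). That library also had the highest Aqp2, the water channel of principal cells, at 9404 against 5628 and 3149 in the other WT libraries. Its summed principal cell and collecting duct markers stood at 17351 against 13197 and 10152, and its summed urothelium markers at 2265 against 495 and 92.1. Their part in the Cldn4 value was not tested.

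Without WT replicate 3 the Pkd2 count at P7 went from 2 to 4 of 9 claudins, in a fit that called 2047 of 12603 transcripts (16.2%). Cldn7 was then called higher at 0.57 (adjusted p = 0.00664), and Cldn2 lower at -0.59 (adjusted p = 0.00145). With it, Cldn7 had 422, 413 and 395 normalized counts in KO and 291, 262 and 367.5 in WT, without overlap but short of the threshold (0.42 ± 0.13, adjusted p = 0.0702). Cldn7 in the Pkd1 model did not separate at P7, with KO values of 240.5, 219 and 315 and WT values of 289, 262 and 212 (0.02 ± 0.20, adjusted p = 0.951).

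**Figure D3:**
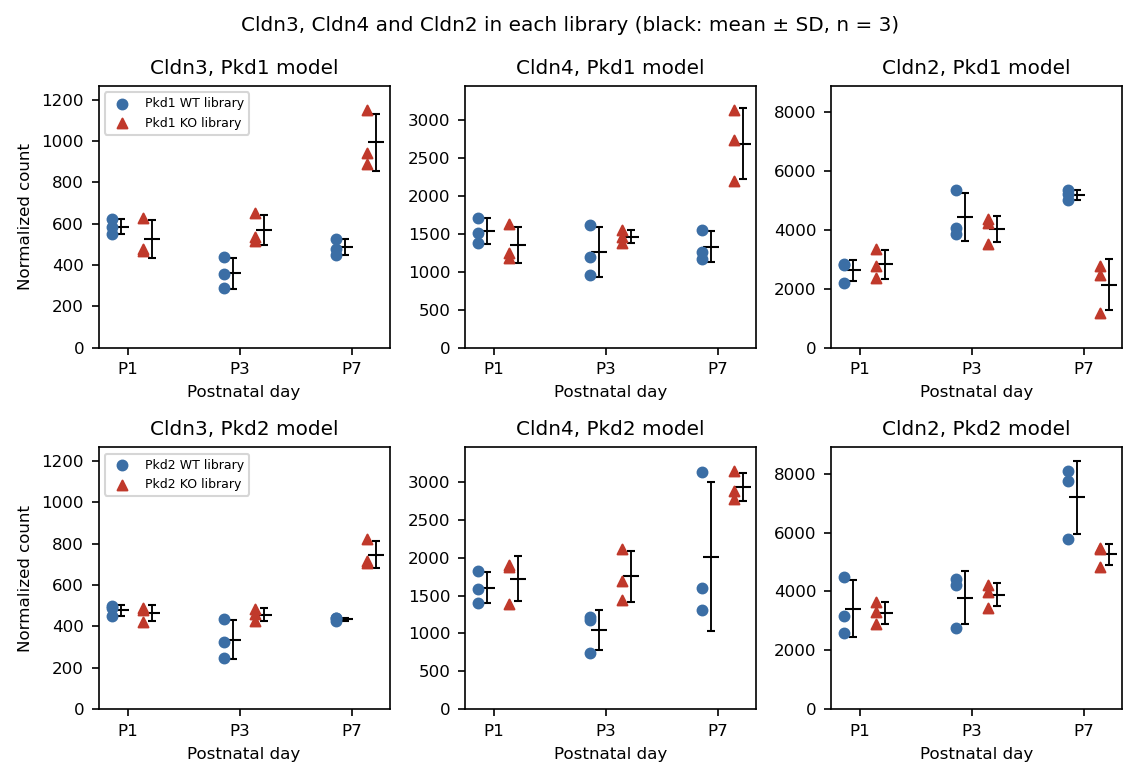
Normalized count of Cldn3, Cldn4 and Cldn2 (vertical axes, from 0) in each library against postnatal day, for the Pkd1 model (top) and the Pkd2 model (bottom), with circles for WT, triangles for KO, and the mean and SD in black. At P7 the KO and WT libraries do not overlap for Cldn3 or Cldn2 in either model, and 1 Pkd2 WT library stands at 3134 for Cldn4, inside the KO range.

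Claudins of the collecting duct were also apart at P3 without reaching the threshold. Cldn4 in the Pkd2 model had 2119, 1445 and 1690.4 normalized counts in KO and 1172, 739 and 1213 in WT (0.75 ± 0.22, adjusted p = 0.931). Cldn7 had KO values of 322, 284 and 298 and WT values of 262, 169 and 217. The summed principal cell and collecting duct markers were 13063, 10190 and 9127 in these KO libraries and 10826, 5822 and 7809 in WT. Summed urothelium markers were 341 to 2914 in KO and 85.9 to 824 in WT. The part of these markers in the Cldn4 and Cldn7 values was not tested. For Pkd1 at P3 Cldn3 and Cldn7 were above WT in every KO library and Cldn8 was below. Groups did not overlap for 3 of 9 claudins in the Pkd1 model at P3, against 21% of all transcripts, and for 2 of 9 in the Pkd2 model, against 9.91%.

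Cldn8, the partner of Cldn4 in the collecting duct junction and the second highest claudin of WT kidneys at P7, did not rise with Cldn3 and Cldn4. In the Pkd1 model at P7 it had 2628, 2049.9 and 2397 normalized counts in KO and 2903, 3689.8 and 2539 in WT, with overlap, and a log2 fold change of -0.37 ± 0.16 (adjusted p = 0.146; 0.0472 without WT replicate 3). The Pkd2 KO values were 3775, 3624 and 3064 and the WT values 3939.9, 3714 and 5158 (-0.29 ± 0.13, adjusted p = 0.183). The point estimate for Cldn8 was negative in both models, on the other side of 0 from Cldn3 and Cldn4, and the difference between the genes was not tested.

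Cldn2 fell. In the Pkd1 model at P7 the KO libraries had 2469.6, 1170.2 and 2786 normalized counts and the WT libraries 5011, 5221 and 5358. The highest KO library lay far below the lowest WT library, and the log2 fold change was -1.28 ± 0.28 (adjusted p = 0.0246). The call was lost without KO replicate 1 (adjusted p = 0.0585) or WT replicate 1 (0.0793), with log2 fold changes of -1.38 and -1.30. On P1, P3 and P7 the KO means were 2836 ± 491, 4035 ± 451 and 2142 ± 856, beside WT means of 2622 ± 363, 4430 ± 815 and 5197 ± 175.

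Cldn2 also fell in the Pkd2 model. KO values at P7 were 5460.1, 4839 and 5474 and WT values 7742, 8086 and 5786, without overlap, and the log2 fold change was -0.45 ± 0.12 (adjusted p = 0.0465). Leaving out any 1 library other than WT replicate 3 took it past 0.05, to adjusted p of 0.0896 to 0.157, with log2 fold changes of -0.37 to -0.48. The KO mean of 5258 ± 363 was still above the KO mean of 3281 ± 374 at P1.

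Other genes of the proximal tubule fell beside Cldn2. All 6 of the listed markers were called lower at P7 in both models, among them Lrp2, the endocytic receptor megalin (-1.48 ± 0.23 in Pkd1, -0.64 ± 0.12 in Pkd2), Cubn, its partner (-1.75 and -0.64), Slc34a1, the phosphate transporter (-0.91 and -0.72), and Slc5a2, the glucose transporter (-1.08 and -0.48). Their summed normalized count was 18394 to 32437 in Pkd1 KO and 57656 to 67157 in WT, and 41379 to 43382 in Pkd2 KO and 61178 to 75271 in WT. None of the 6 was at 0. Their part in the result for Cldn2 was not tested.

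Neither Cldn16 nor Cldn19, the members measured from the thick ascending limb, was called at P7. Cldn10 could not be read, so other claudins of this segment are not covered. Cldn16 at P7 had 466, 319 and 321 normalized counts in Pkd1 KO and 348, 317 and 537 in WT (-0.12 ± 0.24, adjusted p = 0.758). Its Pkd2 values were 524, 468 and 468 in KO and 435, 524 and 388 in WT (0.12 ± 0.12, adjusted p = 0.576). The KO and WT libraries overlapped in both models.

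Cldn19 had negative log2 fold changes in both models, short of the threshold. It had 2157, 1857 and 1871 normalized counts in Pkd1 KO and 2039.9, 2429 and 2309.8 in WT (-0.20 ± 0.12, adjusted p = 0.254). The Pkd2 KO values of 1693, 1854 and 1628 lay below the WT values of 2115, 1884 and 2731 (-0.38 ± 0.13, adjusted p = 0.0899; 0.0392 without WT replicate 2), and DESeq2 gave an adjusted p of 0.0244.

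Other genes of the same segment were lower in KO kidneys. Egf, a growth factor of the thick ascending limb and distal tubule, fell in both models (-2.33 ± 0.29 in Pkd1, adjusted p = 0.00618; -1.59 ± 0.15 in Pkd2, adjusted p = 0.00106). Slc12a1, the sodium-potassium-chloride cotransporter, fell in Pkd1 (-2.22 ± 0.50, adjusted p = 0.0278) and had -1.13 ± 0.34 in Pkd2 (adjusted p = 0.0641). Kcnj1, the potassium channel that works with it, had -3.34 ± 0.96 in Pkd1 (adjusted p = 0.0527) and fell in Pkd2 (-1.34 ± 0.36, adjusted p = 0.0438). Slc12a1 was thinly counted, at 109 normalized counts or fewer in every P7 library, and of the 5 listed markers Umod and Cldn14 averaged under 1 count. All 5 together summed to 84.3 to 178 normalized counts in Pkd1 KO against 544 to 918 in WT. In the Pkd2 model the sums were 198 to 316 in KO against 728 to 812 in WT. Egf and Kcnj1 were therefore thinly counted in KO kidneys too. The difference between these genes and the claudins was not tested.

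**Figure D4:**
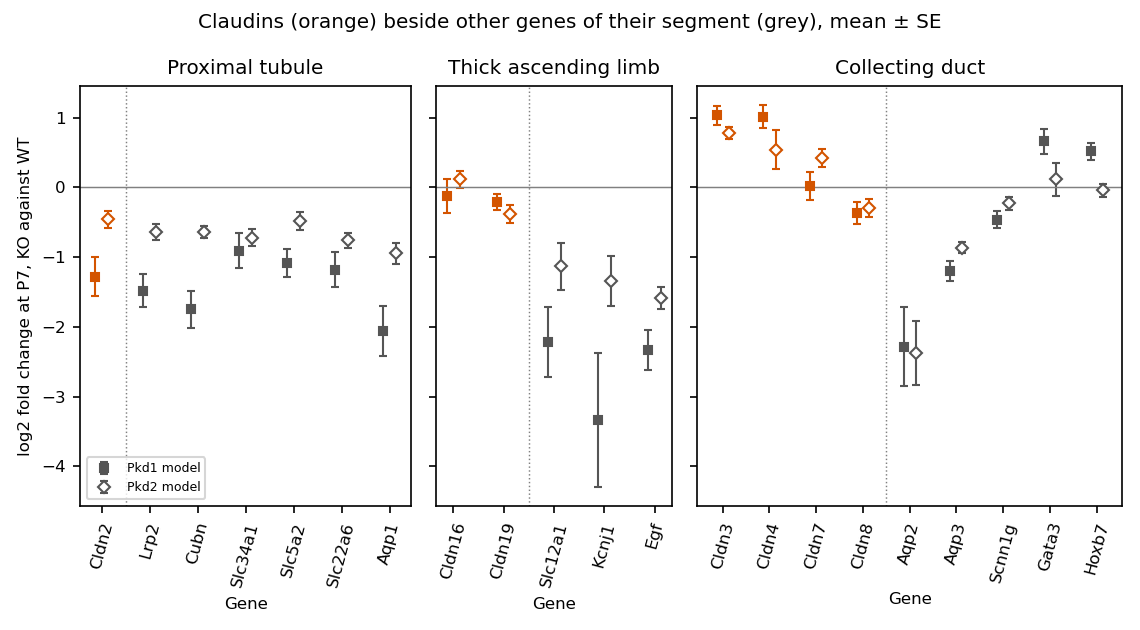
KO against WT log2 fold change at P7 (vertical axis; points, edgeR estimate; bars, SE; squares, Pkd1; open diamonds, Pkd2) of the claudins (orange) beside other genes of the same segment (grey). Cldn2 lies at -1.28 and -0.45 among proximal genes between -2.05 and -0.48, Cldn16 and Cldn19 lie between -0.38 and 0.12 beside limb genes between -3.34 and -1.13, and Cldn3 lies at 1.03 and 0.78 beside duct genes that range from Aqp2 at -2.38 in Pkd2 to Gata3 at 0.66 in Pkd1.

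The collecting duct, where the deletion was made, moved in both directions. Of 8 listed markers 5 were tested, and Avpr2 and Scnn1b were at 0 in all libraries. Aqp2 fell in both models (-2.28 ± 0.56, adjusted p = 0.0357; -2.38 ± 0.46, adjusted p = 0.0151), as did Aqp3, the exit channel for water (-1.19 ± 0.14 and -0.86 ± 0.08). Scnn1g, a subunit of the sodium channel, fell in the Pkd1 model (-0.46 ± 0.12). Gata3 and Hoxb7, transcription factors of the duct lineage, rose in the Pkd1 model (0.66 ± 0.18 and 0.52 ± 0.12) and had 0.12 ± 0.24 and -0.04 ± 0.09 in the Pkd2 model. The summed markers were 6075 to 8061 in Pkd1 KO against 9398 to 13869.5 in WT, and 6520.4 to 7905 in Pkd2 KO against 10152 to 17351 in WT. All 6 intercalated cell markers were called lower in both models, among them Slc4a1, the anion exchanger (-1.80 and -1.04), and Atp6v1b1, a subunit of the proton pump (-1.13 and -0.70). Aqp2 and Aqp3 carried the lower duct sums. Without both, a choice made after the values were seen, the other 6 duct markers summed to 4164 to 4814 in Pkd1 KO against 3668 to 4171 in WT and 4279.5 to 4555 in Pkd2 KO against 4207 to 5357 in WT, with overlap in both models. Their part in the values of Cldn3 and Cldn4 was not tested.

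Markers of other cell types in whole kidney were read at P7 as well. Of 3 tested markers of the distal convoluted tubule 0 were called in either model, and Slc12a3 was listed at 0 in all libraries. Their summed normalized count was lower without overlap in both models, at 1075 to 3299.6 in Pkd1 KO against 3784 to 4936 in WT and 2594 to 3931 in Pkd2 KO against 4062 to 6322 in WT, and the median log2 fold change of the 3 was -1.18 and -0.70. Of 3 tested nephron progenitor markers and 4 urothelium markers 0 were called in either model. Among fibroblast markers Dcn fell in both models (-2.40 ± 0.53 and -0.97 ± 0.17) and Col1a1 rose in Pkd2 KO (0.89 ± 0.13). Kdr, a receptor of endothelial cells, fell in Pkd2 KO (-0.44 ± 0.06) and Csf1r, a receptor of macrophages, rose there (0.35 ± 0.08), with no call for endothelial or leukocyte markers in the Pkd1 model. Their part in the claudin values was not tested.

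Cldn1 and Cldn6 complete the members. Cldn1 had 857, 1100.1 and 1164 normalized counts in Pkd1 KO kidneys at P7 and 1113, 629 and 1151 in WT, and its log2 fold change was 0.11 ± 0.23 there and 0.12 ± 0.11 in Pkd2, with overlapping groups in both. Of 4 podocyte markers 0 were called in either model. Cldn6 had 2292, 2568 and 2708 in Pkd1 KO and 1869, 1364 and 2161 in WT, without overlap, for a log2 fold change of 0.49 ± 0.17 (adjusted p = 0.0853 by edgeR, 0.0225 without WT replicate 3, and 0.0398 by DESeq2). Its Pkd2 groups overlapped (0.13 ± 0.16, adjusted p = 0.660).

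These shifts changed the order of the claudins at P7. In Pkd1 KO kidneys the highest levels were Cldn6 at 122.3 ± 10.5 CPM per kb (SD, n = 3) and Cldn4 at 116.5 ± 20.1, overlapping each other and both above Cldn8 at 78.7 (67.9 to 87.7) without overlap. Cldn2, highest in the WT, stood below Cldn3 at 55.4 ± 22.4, with a range that overlapped that of Cldn3 (62.0 ± 8.35). In Pkd2 KO kidneys Cldn2 (127.2 ± 8.62), Cldn4 (118.8 ± 7.77), Cldn8 (109.0 ± 11.8) and Cldn6 (101.8 ± 23.0) each overlapped the next, and Cldn3 followed at 43.7 ± 3.71.

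The third comparison asked whether the KO effect itself changed between P1 and P7. It did in the Pkd1 model for 3 of 9 claudins, against 7.75% of all transcripts. With 1 library left out the transcripts called ranged from 322 (without P1 KO replicate 2) to 2186 (without P7 WT replicate 3). The difference between the P7 and P1 log2 fold changes was 1.19 ± 0.22 for Cldn3 (edgeR, adjusted p = 0.00590), 1.20 ± 0.25 for Cldn4 (adjusted p = 0.0118) and -1.39 ± 0.32 for Cldn2 (adjusted p = 0.0185). Cldn3 and Cldn4 kept the call with any 1 of 12 libraries left out, and Cldn2 in 11 of 12, the exception being P1 KO replicate 2 (adjusted p = 0.0611). For Pkd2 none of the 9 was called, against 1.3% of all transcripts, and the closest was Cldn3 at 0.83 ± 0.20 (adjusted p = 0.0557).

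The models were then set against each other. The P7 KO effect in Pkd1 minus that in Pkd2 was -0.80 ± 0.34 for Cldn2 (adjusted p = 0.271), 0.49 ± 0.36 for Cldn4 (adjusted p = 0.513) and 0.27 ± 0.15 for Cldn3 (adjusted p = 0.395). No claudin was called, and the test called 0% of all transcripts, 0 of 12817, with 2128 at an unadjusted p under 0.05. DESeq2 called 406 transcripts and none of the claudins. Leaving out 1 library at a time gave 1349 transcripts without Pkd1 WT replicate 3, 26 without Pkd1 KO replicate 3, 4 without Pkd2 WT replicate 3 and 0 in the other 9 fits, with 0 claudins in each.

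The pattern of each claudin over all 36 libraries was compared with that of 12343 transcripts by the root mean square (RMS) difference of centred log2 CPM, as a description. Cldn2 was most like Mep1a, a meprin of the proximal brush border, at 0.18, and Galnt11 at 0.19, where Cldn2 itself varied by 0.53. Cldn4 was most like Bspry (0.21) and Krt8, a keratin of simple epithelia (0.23), and Cldn7 like Tes (0.20) and Cdh1, E-cadherin (0.21). For Cldn3 the closest were 2310022B05Rik (0.26) and Actb, cytoplasmic actin (0.27), against its own 0.46. Cldn8 was closest to Sft2d2 (0.14) and Erlin2 (0.14), Cldn6 to Snx22 and Sem1 (0.17 each), Cldn1 to Foxd1 (0.23) and 2410002F23Rik (0.27), Cldn16 to Mapkapk3 and Syt13 (0.25 each) and Cldn19 to Misp (0.19) and Ptger1 (0.20).

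The claudins were compared among themselves in the same way. Cldn16 and Cldn19 were each the most alike member of the other, at an RMS difference of 0.31, the 54th closest of all transcripts to Cldn16. For Cldn4 the closest member was Cldn7 (0.36) and for Cldn7 it was Cldn8 (0.28). The difference of 0.36 exceeded the own variation of Cldn7 (0.30). That of 0.28 exceeded the own variation of Cldn8 (0.25) but not that of Cldn7. Cldn7 ranked 1982 among all transcripts for Cldn8. The closest member to Cldn2 of the proximal tubule was Cldn8 of the collecting duct (0.39), again beyond the own variation of Cldn8. Cldn3, the neighbour of Cldn4, was closest to Cldn6 (0.36). That difference exceeded the own variation of Cldn6 (0.31), and Cldn3 ranked 4119 among all transcripts for Cldn6. Cldn2 and Cldn3 were the least alike of all pairs, at 0.81. Neighbours on the chromosome did not all move together: Cldn1 and Cldn16, 91.3 kb apart on chromosome 16, were the least alike pair for Cldn16 (0.62).

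Of 18 other claudins listed 15 were in the table and 6 passed the filter, and 1 of 6 was called at P7 in each model, the same gene both times, against 13.7% of all transcripts in Pkd1 and 13.9% in Pkd2. That gene was Cldn11, known among other sites from the junctions of myelin, the testis and the inner ear. Its segment in the kidney was not tested. Cldn11 fell from 868 ± 74.9 normalized counts (SD, n = 3) in WT to 298 ± 115 in Pkd1 KO (-1.54 ± 0.27, adjusted p = 0.0139). In the Pkd2 model it fell from 981 ± 144.5 to 385 ± 124 (-1.35 ± 0.23, adjusted p = 0.00956). Cldn15, a pore of the gut, had -0.59 ± 0.22 and -0.81 ± 0.26 (adjusted p = 0.0990 and 0.0788). Cldn9, which starts 0.138 kb from the end of Cldn6 and is known from the newborn kidney, fell between P1 and P7 in Pkd1 WT kidneys (-1.29 ± 0.22, adjusted p = 0.00350) and had 0.81 ± 0.23 in Pkd1 KO against WT at P7 (adjusted p = 0.0522). Cldn5, the claudin of blood vessels, had -0.04 ± 0.19 and -0.22 ± 0.10, and Cldn22 and Cldn23, with 14.0 and 36.1 normalized counts or fewer on average in every P7 group, were not called.

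Other junction genes were called at P7 for 2 of 19 in Pkd1, against 13.7% of all transcripts, and 3 of 19 in Pkd2, against 13.9%. Of 26 other tight junction proteins listed these 19 were tested, and in Pkd1 KO 0 were called higher and 2 lower, their median log2 fold change being -0.33 where that of all transcripts was -0.01. In Pkd2 KO 1 was called higher and 2 lower, with a median of -0.02 against 0.00. Jam3, a junctional adhesion molecule, fell in both (-0.43 ± 0.11 and -0.30 ± 0.08). Prkcz, an atypical protein kinase C of the polarity complex, fell in Pkd1 (-1.47 ± 0.35, adjusted p = 0.0327), Mpp5, the scaffold Pals1, fell in Pkd2 (-0.32 ± 0.06, adjusted p = 0.0157), and Prkci, the other atypical kinase, rose in Pkd2 (0.27 ± 0.06, adjusted p = 0.0218). Amotl1 in Pkd1 had -0.59 ± 0.17 (adjusted p = 0.0567).

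Of 16 listed regulators of claudins 13 were tested, and 5 fell and 0 rose in Pkd1 KO at P7, with 4 falling and 0 rising in Pkd2 KO. Of all transcripts 7.54% were called lower and 6.2% higher in Pkd1 KO, and 6.06% lower and 7.82% higher in Pkd2 KO. Casr, the calcium receptor that acts on the claudins of the thick ascending limb, fell in both (-2.02 ± 0.33, adjusted p = 0.0119; -0.65 ± 0.15, adjusted p = 0.0278). Prss8, the protease prostasin that acts on Cldn4, fell in both (-0.58 ± 0.12 and -0.45 ± 0.07), and so did Hnf4a, a transcription factor of the proximal tubule (-0.98 ± 0.21 and -0.57 ± 0.14). Pth1r fell in Pkd1 (-2.27 ± 0.39, adjusted p = 0.0137), as did Vdr, the vitamin D receptor (-0.79 ± 0.18), and Wnk4, a kinase that acts on claudins of the distal nephron, fell in Pkd2 (-0.70 ± 0.09, adjusted p = 0.00295). Grhl2, a factor for Cldn3 and Cldn4 in epithelia, had 0.03 ± 0.20 and 0.11 ± 0.15 and was not called in either model.

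With the presence of Y-linked transcripts as a covariate in a fit of all 18 Pkd1 libraries, 0 of 9 claudins and 6 transcripts in all were called at P7. The log2 fold changes were then 1.03 for Cldn3 (adjusted p = 0.161), 0.79 for Cldn4 (0.295) and -1.13 for Cldn2 (0.275). Among the Pkd1 groups only P1 WT held libraries with and without these transcripts, replicate 2 being without. That library against P1 WT replicates 1 and 3 set the covariate, so the fit cannot tell genotype and Y-linked transcripts apart. In the Pkd2 model, where the KO and 2 of 3 WT libraries all had Y-linked transcripts, the same fit called Cldn3 and not Cldn2, which had -0.52 (adjusted p = 0.0950). The fit of 18 Pkd2 libraries without the covariate called 1 claudin at P7 and did not call Cldn2 either.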

How the data were processed

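Total RNA of whole kidneys was sequenced in 36 libraries, and the table deposited by the authors holds raw read counts per RefSeq transcript, which they made with TopHat 2.1.0 on mm10 and HTSeq (the submitters' notes also list CASAVA 1.8.2). Symbols from RefSeq matched 28974 of 29996 rows. A transcript entered the tests when 3 or more of the 18 libraries in its model had 10 counts or more (12527 passed for Pkd1, 12633 for Pkd2), and was fitted with edgeR 4.0.16 in R 4.3.3: TMM factors, quasi-likelihood tests, and adjusted p by Benjamini-Hochberg over all transcripts tested, called under 0.05. KO and WT were compared on the 6 libraries of a day, and P7 with P1 on 9 WT or 18 libraries. SE is the size of the log2 fold change over the square root of F. DESeq2 1.42.0, RLE factors, no filter, counts summed per gene, edgeR's exact test, a 2-fold minimum, other sets of libraries and a replicate block were tried. The steps were tested on simulated data.

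The depth of 7179152 to 15850818 counts limits precision for transcripts with few counts. Replicates were compared before averaging, and all 36 pairs differed beyond sampling noise. The members and lists were chosen with earlier results of these data known. Named were all members, other claudins past the filter, the 3 smallest adjusted p of each of the junction and regulator lists, the first 4 markers of each cell type and the 2 nearest patterns. Gata3, Hoxb7, Scnn1g, Scnn1b, Hnf4a, Vdr, Grhl2 and the pair Cldn12 and Cldn18 were named after their values were seen. Small RNA libraries were not analysed here.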

Additional observations from a re-analysis of the deposited data

Results flagged for a closer look

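For 3 claudins the KO effect in the Pkd1 model at P7 differed from that at P1 by edgeR's test of the difference. The P7 minus P1 difference in log2 fold change was 1.19 for Cldn3, higher in 3 of 3 KO libraries than in every WT library at P7 and overlapping at P1. It was 1.20 for Cldn4, with the same placing of the libraries. It was -1.39 for Cldn2, lower in 3 of 3 KO libraries at P7 and overlapping at P1. All 3 rest on the P7 comparison in which Y-linked transcripts were present in 3 of 3 KO and 0 of 3 WT libraries, and at P1 they were present in 0 of 3 KO and 2 of 3 WT libraries, so genotype and Y-linked transcripts cannot be told apart at P7. Groups of 3 libraries are too small for a test of single libraries that stand apart.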

How the results depend on the processing

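RLE factors and counts summed per gene left all 35 results labelled the same. For log2 fold changes that label means the same sign and side of the threshold, and for counts of calls a count equal or close to the main one. Cldn3 at P7 was called in both models with any 1 library left out. The cause of the changes below was not tested, and the depth limits low transcripts.

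With DESeq2 the transcripts called were 2 (P1), 248 (P3) and 2763 (P7) in Pkd1 and 33 (P1) and 38 (P3) in Pkd2, with 1 claudin at Pkd1 P3, 1 for the Pkd2 difference between P7 and P1, and Cldn6 (0.49, Pkd1 P7) and Cldn19 (-0.39, Pkd2 P7) newly called. In Pkd2 WT from P1 to P7 DESeq2 called 3 claudins in place of 2, the third being Cldn8 (0.49, adjusted p = 0.0194). The exact test called 4 (P1) and 180 (P3) transcripts and 1 claudin at P3 in Pkd1, and 30 (P1) and 18 (P3) transcripts in Pkd2. No filter gave 4 at Pkd1 P3, where the main count was 1. A 2-fold minimum left 748 transcripts in Pkd1 and 335 transcripts and 0 claudins in Pkd2 at P7.

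With 18 libraries in one fit the counts were 4, 0 and 3882 for Pkd1 at P1, P3 and P7 and 2 for Pkd2 at P3. Cldn8 in Pkd1 (-0.37) was then called and Cldn2 in Pkd2 (-0.45) was not, leaving 1 claudin. With Y-linked counts as a covariate Pkd1 had 0 transcripts at P3 and 6 at P7, and 0 claudins. In Pkd1 that covariate was set only by P1 WT replicate 2 against P1 WT replicates 1 and 3. Cldn1 (-0.31), Cldn16 (0.35) and Cldn19 (0.38) changed sign, and Cldn2 (-1.13), Cldn3 (1.03) and Cldn4 (0.79) were no longer called. In Pkd2 1 claudin was left, without Cldn2 (-0.52).

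The replicate block gave 5, 2 and 712 transcripts for Pkd1 at P1, P3 and P7 and 1 and 2 for Pkd2 at P1 and P3, and took Cldn2 (-0.44) off the Pkd2 P7 calls, leaving 1 claudin. Same-numbered KO and WT libraries deviated together, with every pair over 0.1, at Pkd1 P1 (mean correlation 0.357, lowest 0.205) and on no other day. The labels give no shared litter, so the numbers are a hint from the data.

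Leaving out 1 library at a time gave 0 to 4, 0 to 19 and 224 to 3228 transcripts for Pkd1 at P1, P3 and P7, and 0 to 3 and 649 to 2047 for Pkd2 at P3 and P7. It gave 322 to 2186 and 89 to 338 for the difference between days in Pkd1 and Pkd2, and 0 to 1349 for the difference between the models. Claudins called at P7 ranged from 1 (without WT replicate 1) to 5 (without WT replicate 3) in Pkd1 and from 1 to 4 in Pkd2, those higher at P7 than P1 in WT from 1 to 3 and from 0 to 4, and those in the Pkd1 difference between days from 2 to 3. Log2 fold changes in Pkd1 at P7 ranged from -0.12 to 0.26 for Cldn1, -1.51 to -0.98 for Cldn2, 0.90 to 1.15 for Cldn4, 0.32 to 0.64 for Cldn6, -0.14 to 0.14 for Cldn7, -0.48 to -0.21 for Cldn8 and -0.32 to 0.15 for Cldn16. In Pkd2 they ranged from -0.59 to -0.37 for Cldn2, 0.31 to 1.01 for Cldn4, -0.064 to 0.25 for Cldn6, 0.31 to 0.57 for Cldn7 and -0.49 to -0.21 for Cldn19.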
